A study of Caenorhabditis elegans with 2 samples.

Results

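The protein-coding genes syp-3, eelo-2, ntl-11, Y71G12B.23 and tsr-2 of *Caenorhabditis elegans* had strong peaks of the transcription factor SNPC-4 near their 5′ ends, ranked from 78 to 189 of 4675. They are 5 of the 19985 protein-coding genes of the annotation. They were chosen as coding genes at SNPC-4 peaks of high signal with no small RNA gene near. Their summits lay within 300 bp of the annotated 5′ end. A peak with such a summit is called lone here where no 5′ end of a small RNA gene lay within 500 bp of it. Signal therefore entered the choice of the genes, and signal and rank are given as a description with no test. Some genes with lone peaks of such signal were not chosen. SNPC-4 was profiled by chromatin immunoprecipitation followed by sequencing in 1 group, 2 biological replicates of whole hermaphrodite young adults of strain YL487, collected 60 h after release from arrest as starved first-stage larvae. Every animal carried SNPC-4 fused at its C terminus to GFP and FLAG, and the immunoprecipitation was against GFP per the description, although the labelled antibody target is snpc-4. Whole animals were used, so the tissue in which a site was occupied is not known, and whether the tag replaces the endogenous gene is not stated in the labels.

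The data are lists of regions in the ce11 build. Each replicate, and both pooled, gave a candidate list of 30000 regions, and 4675 pooled candidates passed the irreproducible discovery rate (IDR) threshold and are called IDR peaks. A region has a signal score, on a scale not given in these sources, a summit and, from the signal, a rank within its list. Signals are compared within a list and not between lists. Depth per sample is unknown from such lists, and how the authors handled reads that match several places is not stated.

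SNPC-4 corresponds in worms to the largest SNAPc subunit, SNAPc being a complex that recognises a short element upstream of small nuclear RNA genes and recruits RNA polymerase to them. In worms it is also known to act in the germ line at the genes of piRNAs, small RNAs that guide transposon and gene silencing and that lie mostly in clusters on chromosome IV. The 5 coding genes belong to unrelated processes. SYP-3 is a component of the synaptonemal complex, which holds paired chromosomes together in meiosis. NTL-11 is named by RefSeq as subunit 11 of CCR4-NOT, the complex that shortens poly(A) tails. TSR-2 is named as the homologue of a factor that in yeast helps to mature the small ribosomal subunit. RefSeq describes EELO-2 as a protein with a peptidase catalytic domain, and Y71G12B.23 as related to a membrane protein named after monocyte to macrophage differentiation in vertebrates.

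All 5 genes had an IDR summit within 300 bp by the rule, against 6.36% of all 19985 protein-coding genes. Of the 4675 IDR peaks, 1116 had a coding 5′ end within 300 bp and 992 of these were lone. In the order of the 992 by pooled signal, syp-3 stood 2nd, eelo-2 4th, ntl-11 5th, Y71G12B.23 8th and tsr-2 9th. Between them stood dld-1, which encodes dihydrolipoamide dehydrogenase, at place 3, T22A3.12 at place 6 and the ribosomal protein gene rpl-29 at place 7, and W01D2.3, which was named after its values were seen, stood at place 1. Of those 4, 3 shared their summit with a non-coding RNA gene of another class within 500 bp, W01D2.7 at W01D2.3, LLC1.120 at dld-1 and T22A3.13 at T22A3.12. Of the 992 lone peaks, 91 had such a neighbour, and none of the 5 genes did. Last of the 5 genes stood tsr-2 with a signal of 1807. Next came Y39G10AR.32 with 1784, followed by hrpu-1, the shared promoter of Y17G9B.5 and rpl-20, sec-61.A and tmem-258. Above syp-3, W01D2.3 stood apart with a signal of 15338, and below tsr-2 the signals fell with no gap.

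**Figure D1:**
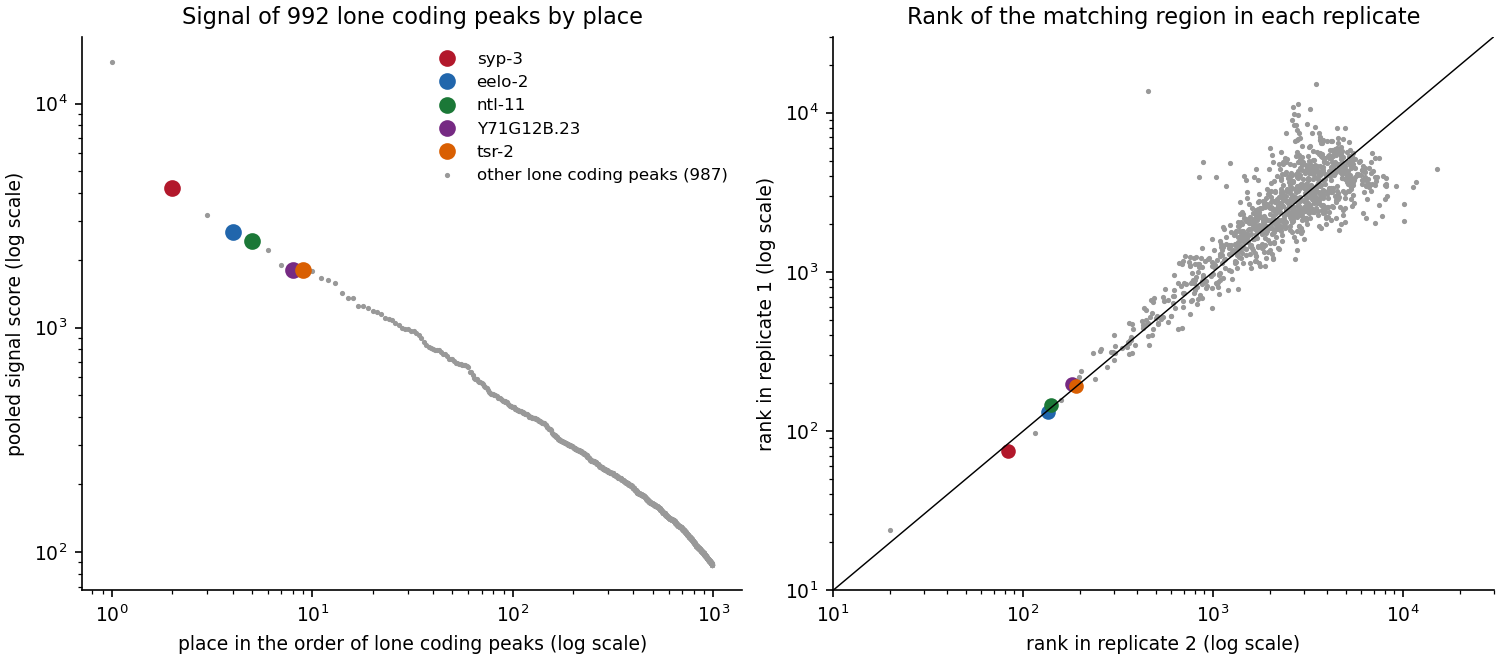
Left, the pooled signal score of each of the 992 lone coding peaks against its place in the order, both on log scales. Right, the rank of the matching region in replicate 1 against its rank in replicate 2, on log scales, with the line of equal ranks, and with the 5 genes in colour in both panels. The 5 genes lie between signals of 4214 and 1807, below the single point of W01D2.3 at 15338 and with no gap after the last of them, and close to the line of equal ranks.

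At syp-3 the pooled signal was 4214 and the rank among all IDR peaks 78. The replicate 1 region had a signal of 2215 and rank 75, and the replicate 2 region a signal of 2056 and rank 83. At eelo-2 the pooled signal was 2673 and the rank 131, with signals of 1393 and 1292 and ranks of 131 and 136 in replicates 1 and 2. Both replicates thus placed syp-3 ahead of eelo-2. At ntl-11 the pooled signal was 2444 and the rank 141, with signals of 1228 and 1229.7 and ranks of 146 and 141. At Y71G12B.23 the pooled signal was 1809 and the rank 188, with signals of 886 and 924 and ranks of 199 and 182. At tsr-2 the pooled signal was 1807 and the rank 189, with signals of 919 and 897 and ranks of 193 and 190. The order of Y71G12B.23 and tsr-2 was opposite in the replicates, and rpl-29 (ranks 190 and 183) and Y39G10AR.32 (ranks 197 and 186) fell among them, so these 4 places were not separated by the replicates. The ranks of syp-3, eelo-2 and ntl-11 kept their order in both.

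The regions of all 5 genes were wider than the median lone peak, and at 4 of them the replicate summits lay closer together than the median. The widths were 995 bp at syp-3, 670 bp at eelo-2, 1071 bp at ntl-11, 570 bp at Y71G12B.23 and 740 bp at tsr-2, against a median of 464 bp over the other 987 lone peaks. Wider than 464 bp were 5 of the 5 and 10.3% of the 992 lone peaks. The replicate summits lay 20 bp apart at syp-3, 3 bp at eelo-2, 17 bp at ntl-11, 2 bp at Y71G12B.23 and 2 bp at tsr-2, against a median of 20 bp at the 975 other lone peaks with a match in both replicates. The absolute difference in log2 rank between replicates was at most 0.15 for the 5 genes, against a median of 0.33 for the others. These measures come from the same reads as the signal that chose the genes, so they are a description as well. Among the other lone coding peaks, the 5 genes themselves left out, the ranks nearest to those of syp-3 over the pooled and both replicate lists belonged to dld-1, with a mean absolute log2 rank difference of 0.42. T22A3.12 was nearest to eelo-2 (0.25) and to ntl-11 (0.14), and Y39G10AR.32 to Y71G12B.23 (0.025) and to tsr-2 (0.028), over 3 lists from 2 samples.

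The gene syp-3 (WBGene00006377) lies on chromosome I from 8663045 to 8664445 on the minus strand. Its summit at 8664551 was intergenic, 106 bp upstream of the 5′ end of its longer annotated transcript. The shorter transcript, the form that RefSeq gives, starts 325 bp further downstream, so the summit was 431 bp from that 5′ end and would fall outside the 300 bp window. F39H2.3, described by RefSeq as a protein with a folate-binding domain, is transcribed away from syp-3. Its 5′ end was 425 bp from the same summit, and no IDR summit lay within 300 bp of it. The nearest small RNA gene, a tRNA gene, was 116687 bp away. No second IDR peak lay within 2 kb.

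The gene ntl-11 (WBGene00013530) lies on chromosome IV from 15455127 to 15471495 on the minus strand, and its summit at 15471612 was 117 bp upstream. Its upstream neighbour, within 2 kb, carried a strong peak as well. Y73F8A.27, transcribed in the opposite direction, had an IDR peak 219 bp upstream of its 5′ end with a signal of 1361, rank 258 in the pooled list, 254 in replicate 1 and 276 in replicate 2. A weaker summit of rank 3410 shared that region, and a further IDR peak of rank 3964 lay 1672 bp inside ntl-11.

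Both upstream peaks stood on the same sequence. A block of 164 aligned bases under the ntl-11 summit recurred 970 bp away under the Y73F8A.27 summit in the same orientation, at 89.0% identity. The ntl-11 summit was 43 bases into its block and the Y73F8A.27 summit 51 bases into its own. The blocks are printed because both summits fall on nearly the same bases of the repeat, with the summit and 10 bases on each side in capitals, from the plus strand at chrIV:15471569-15471732 and chrIV:15472539-15472699 (ce11).
ntl-11: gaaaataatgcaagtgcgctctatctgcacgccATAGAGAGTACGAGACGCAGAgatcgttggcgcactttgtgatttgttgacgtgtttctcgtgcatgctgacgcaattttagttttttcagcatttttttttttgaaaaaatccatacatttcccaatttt
Y73F8A.27: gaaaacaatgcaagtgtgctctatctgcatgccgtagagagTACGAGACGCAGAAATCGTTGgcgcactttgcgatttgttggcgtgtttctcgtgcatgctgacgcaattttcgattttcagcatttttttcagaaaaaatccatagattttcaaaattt
No other place in the genome aligned with the ntl-11 window over 150 bases or more. Shorter alignments, of 47 to 69 bases at 77.9% to 85.1% identity, lay between the printed blocks.

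The gene tsr-2 (WBGene00013109) lies on chromosome IV from 16656613 to 16657359 on the plus strand, with its summit at 16656435, 178 bp upstream. The divergent gene set-26, which encodes a reader of histone methylation, had its 5′ end 552 bp from that summit and no IDR summit within 300 bp. Each replicate had a weaker second summit just inside tsr-2, at +20 in replicate 1 (rank 9584) and at +24 in replicate 2 (rank 3549), which did not appear in the pooled list. A further strong IDR region began inside the short gene and ran past its end, with both summits past it, 1006 bp (signal 904, rank 380) and 1208 bp (signal 390, rank 947) downstream of the 5′ end. The second of these was within 300 bp of the 5′ end of the piRNA gene 21ur-1133, itself 1659 bp from the promoter summit. An IDR peak of rank 2900 lay 1980 bp upstream.

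The gene eelo-2 (WBGene00013997) lies on chromosome IV from 17250131 to 17254964 on the plus strand. Its summit at 17249907 was 224 bp upstream, and no other IDR peak lay within 2 kb. The piRNA gene 21ur-13616, on the opposite strand, had its 5′ end 665 bp from the summit with no IDR summit within 300 bp of it. At eelo-2 and tsr-2 the sequence of 301 bases around the summit was present at 1 place in the genome. The 201 bases around these summits are printed because neither has a copy elsewhere nor any of the motifs searched, again with the summit and 10 bases on each side in capitals, from the plus strand at chrIV:17249807-17250007 and chrIV:16656335-16656535 (ce11).
eelo-2: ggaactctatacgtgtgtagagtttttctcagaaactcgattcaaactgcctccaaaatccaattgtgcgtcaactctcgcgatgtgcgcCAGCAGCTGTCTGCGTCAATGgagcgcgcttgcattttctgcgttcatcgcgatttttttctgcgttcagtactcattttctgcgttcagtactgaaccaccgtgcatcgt
tsr-2: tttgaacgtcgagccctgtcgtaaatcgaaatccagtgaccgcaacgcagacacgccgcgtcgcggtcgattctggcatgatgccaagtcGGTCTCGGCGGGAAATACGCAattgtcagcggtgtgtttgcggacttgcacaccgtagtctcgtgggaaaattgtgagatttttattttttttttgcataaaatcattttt

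Y71G12B.23 (WBGene00022158) lies on chromosome I from 1670033 to 1672742 on the minus strand. Its summit at 1672478 was not in the promoter but 264 bp inside the gene, in the intron after the first exon and 231 bp past the start of the coding sequence. Of the 992 lone peaks, 82.5% had their summit upstream of the nearest coding 5′ end, as did 4 of these 5 genes. A separate, weaker IDR peak (signal 305, rank 1246) lay 678 bp upstream. The nearest small RNA gene, the piRNA gene 21ur-14112, was 18713 bp away. The name lone promoter peak therefore fits this gene by distance and not by position.

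**Figure D2:**
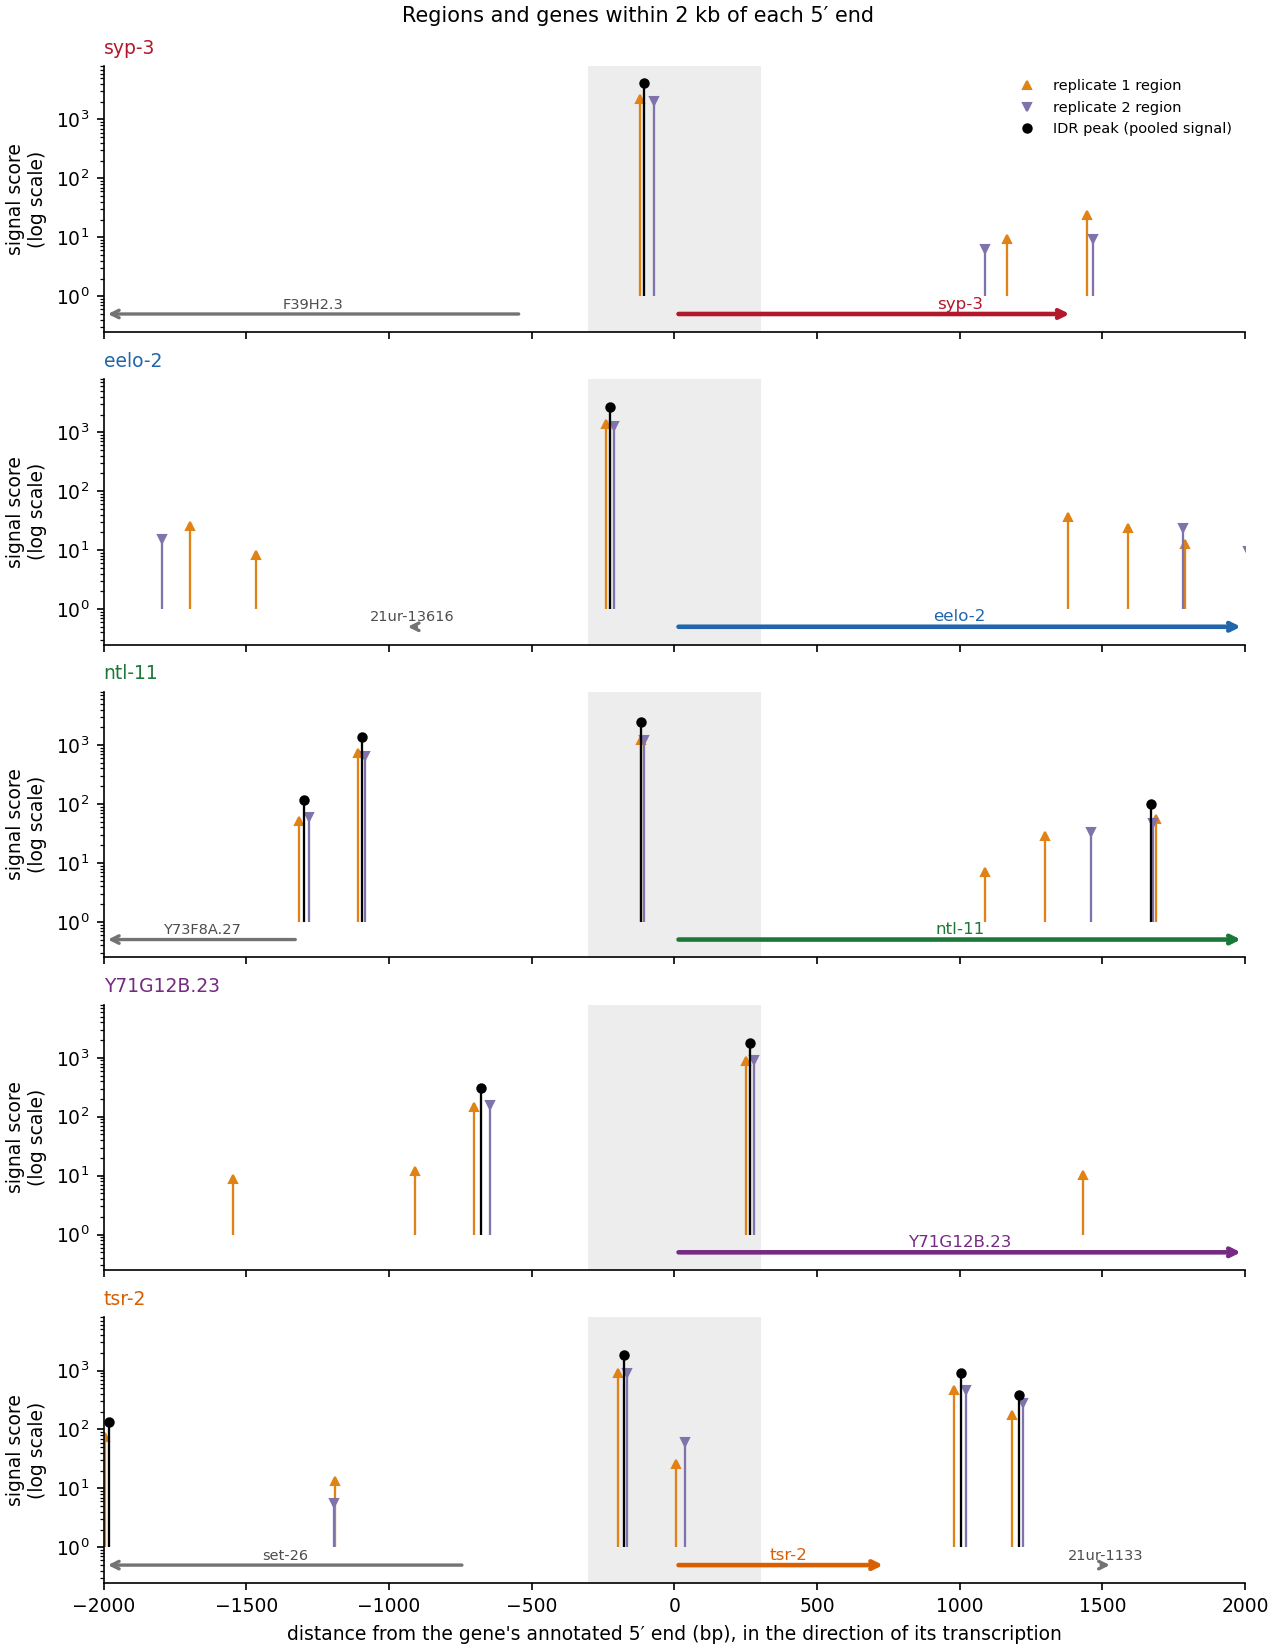
Signal score (log scale) of IDR peaks and of replicate regions against distance from the annotated 5′ end of each gene in its direction of transcription, with genes as arrows and the 300 bp window in grey. Replicate stems are drawn slightly to each side of their summit. A single strong summit stands in each window, on the gene side of the 5′ end at Y71G12B.23, with a strong neighbour at ntl-11 (1095 bp upstream) and at tsr-2 (1006 bp downstream).

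The 3 genes on chromosome IV lay among many piRNA genes, although none had a piRNA 5′ end within 500 bp of its summit. Within 50 kb of the summit the annotation places 349 piRNA genes at tsr-2, 206 at ntl-11 and 146 at eelo-2, against a median of 8 for the other lone coding peaks on that chromosome. That median covers the whole chromosome, so it does not show whether lone peaks near the 3 genes differ from them. Within the same distance there was 1 at Y71G12B.23 and 0 at syp-3, against a median of 0 for the other lone coding peaks on chromosome I. Of the 5 genes, 2 had a divergent coding gene within 1000 bp of the summit, syp-3 and tsr-2, near the background of 33.8% of lone peaks.

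The genes also differed in how often their sequence recurs in the genome. The 301 bases around the syp-3 summit aligned over at least 150 bases with 160 other places on all 6 chromosomes, at a median identity of 87.4% and a highest of 97%. The window at Y71G12B.23 aligned with 50 other places at a median identity of 73.7%, that at ntl-11 with 1, and those at eelo-2 and tsr-2 with 0. Having 10 or more such places was found at 2 of the 5 genes and at 3.02% of the 992 lone peaks. No 2 of the 5 windows aligned with each other. None of the alignments lay over an annotated snRNA, snoRNA, tRNA or miRNA gene. Those of syp-3 lay over 1 non-coding RNA gene of another class, and piRNA genes were not part of this count. All bases of the syp-3 window were soft-masked in the genome file, as repeats are. The share was 73.4% at ntl-11, 39.9% at tsr-2, 38.5% at Y71G12B.23 and 24.6% at eelo-2, against a median of 35.5% over the other lone peaks.

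The copies of the syp-3 element were widely occupied. An IDR summit fell inside 104 of the 160, or 65%, and an IDR region overlapped 120 of them. Signals on these copies ranged from 102 to 3080 with a median of 563. The copy at syp-3, a gene chosen for high signal, was at 4214 the strongest in the pooled list and the strongest in each replicate. That place is a description, because the choice favoured it and the replicates hold the same reads as the pooled list. The next strongest, at 3080, was intergenic, 1242 bp from the nearest coding 5′ end, that of CD4.8. A coding 5′ end lay within 300 bp of only 6 of the 160 copies, and 4 of these had an IDR summit. Copies with a small RNA gene within 500 bp had an IDR summit in 31 of 42 cases (73.8%), against 65% of all 160. By chromosome, the share was 78.8% on IV (41 of 52) and from 52.6% (I) to 83.3% (II) on the others. Nearness to small RNA genes was not separated from chromosome. In all, 111 of the 4675 IDR summits (2.37%) stood on this element, 4 of them lone coding peaks. The other 3 were at T22A3.12, described by RefSeq as a cilia- and flagella-associated protein, at Y39G10AR.32, described as a subunit of a lysosome-related organelle complex, and at tmem-258, a subunit of the enzyme that attaches sugars to proteins.

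The element contained the hexamer TGTCGG in an arrangement shared by its lone coding peaks and by part of its other copies. This hexamer was picked in earlier work on these data at small RNA genes. At syp-3 it occurred on the minus strand, starting 49 bases before the summit, and on the plus strand, starting 59 bases after it, so that the pair pointed outward with a spacing of 108 bp. T22A3.12, Y39G10AR.32 and tmem-258 had the same pair at the same spacing. Such an outward pair within 100 bp of the summit was found at 1.01% of the 992 lone peaks, 4.56% of IDR peaks and 0.304% of candidates that did not pass. The same windows also held inverted repeats, whose longest exact arms were 34 bases at syp-3, 51 at T22A3.12, 17 at Y39G10AR.32 and 85 at tmem-258. Exact arms of 20 bases or more were found at 0.605% of lone peaks. Of the 160 other copies, 102 had the outward pair, 71 of them at a spacing of exactly 108 bp. An IDR summit fell on 73 of the 102 (71.6%, median signal 608) and on 31 of the 58 without the pair (53.4%, median signal 462). Aligned length differed as well, with a median of 301 bases at copies with an IDR summit and 242 at those without. Copies with and without the pair were not compared at equal length. The copies without the pair include 7 copies with no TGTCGG, of which 3 had an IDR summit.

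The copy at tmem-258 is printed as the one most like that at syp-3 (97.0% identity over 301 bases), since it shows the arms and the pair. The second copy, also on chromosome V, has the pair at the same spacing and 87.1% identity to syp-3, and no region of any list overlapped it, so the arrangement was not always found with a peak, and 86.5% of its 50-base words were unique in the genome. Capitals mark TGTCGG, which reads as its reverse complement where it lies on the minus strand, in the plus strand at chrV:7062867-7063067 and chrV:18754881-18755081 (ce11).
tmem-258: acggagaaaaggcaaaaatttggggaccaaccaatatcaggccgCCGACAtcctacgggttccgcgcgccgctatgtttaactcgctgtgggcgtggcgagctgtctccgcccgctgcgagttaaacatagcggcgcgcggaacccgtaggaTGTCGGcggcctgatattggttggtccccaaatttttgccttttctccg
copy without a region: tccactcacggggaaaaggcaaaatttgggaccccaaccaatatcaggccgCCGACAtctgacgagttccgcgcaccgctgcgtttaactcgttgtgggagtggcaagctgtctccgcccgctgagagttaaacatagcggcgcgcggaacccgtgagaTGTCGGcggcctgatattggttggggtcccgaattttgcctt

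Part of the sequence at syp-3 recurs letter for letter at its copies. Of the 50-base words within 100 bp of the syp-3 summit, 63.8% occurred at a single place in the genome, against 100% at the other 4 genes. Every such word was unique at 95% of lone peaks. At tmem-258 the share was 0%, and the replicate regions there ended or began beside the pooled summit: the replicate 1 regions had summits 52 bp before and 147 bp after it, and the replicate 2 region a summit 22 bp after it. Among the other copies of the syp-3 element, the median share of unique words was 71.4% where an IDR summit fell on the copy and 80.1% where none did. Of the 39 copies in which every word was unique, 26 (66.7%) had an IDR summit, close to the 64.5% of the remaining 121. Fewer than 50% of the words were unique at 37 of the 104 copies with an IDR summit and at 17 of the 56 without. Exchange of reads between copies was not tested, so a summit on a copy does not show that this copy itself was bound.

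The Y71G12B.23 window belonged to a different and more diverged repeat. An IDR summit fell inside 35 of its 50 other copies, or 70%, with signals from 129 to 1298 and a median of 469. The copy in Y71G12B.23, at 1809, was stronger than these in the pooled list and in each replicate. This gene too was chosen for high signal, so that place is a description. With shorter alignments counted, from 100 bases, there were 167 copies, of which 75 (44.9%) had an IDR summit, and 1 of these had a higher signal, of 2000. Of the 50 copies, 33 were in introns, as at Y71G12B.23, and 16 were intergenic. TGTCGG occurred at Y71G12B.23 8 bases before and 74 bases after the summit, both on the plus strand. An IDR summit fell on 0 of the 1 copy with 2 or more TGTCGG (Y71G12B.23 has 2), on 35 of the 44 copies with 1 and on 0 of the 5 copies with none. Every 50-base word was unique in 45 of the 50 copies, and 30 of these 45 (66.7%) had an IDR summit, as did all 5 of the remaining copies.

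**Figure D3:**
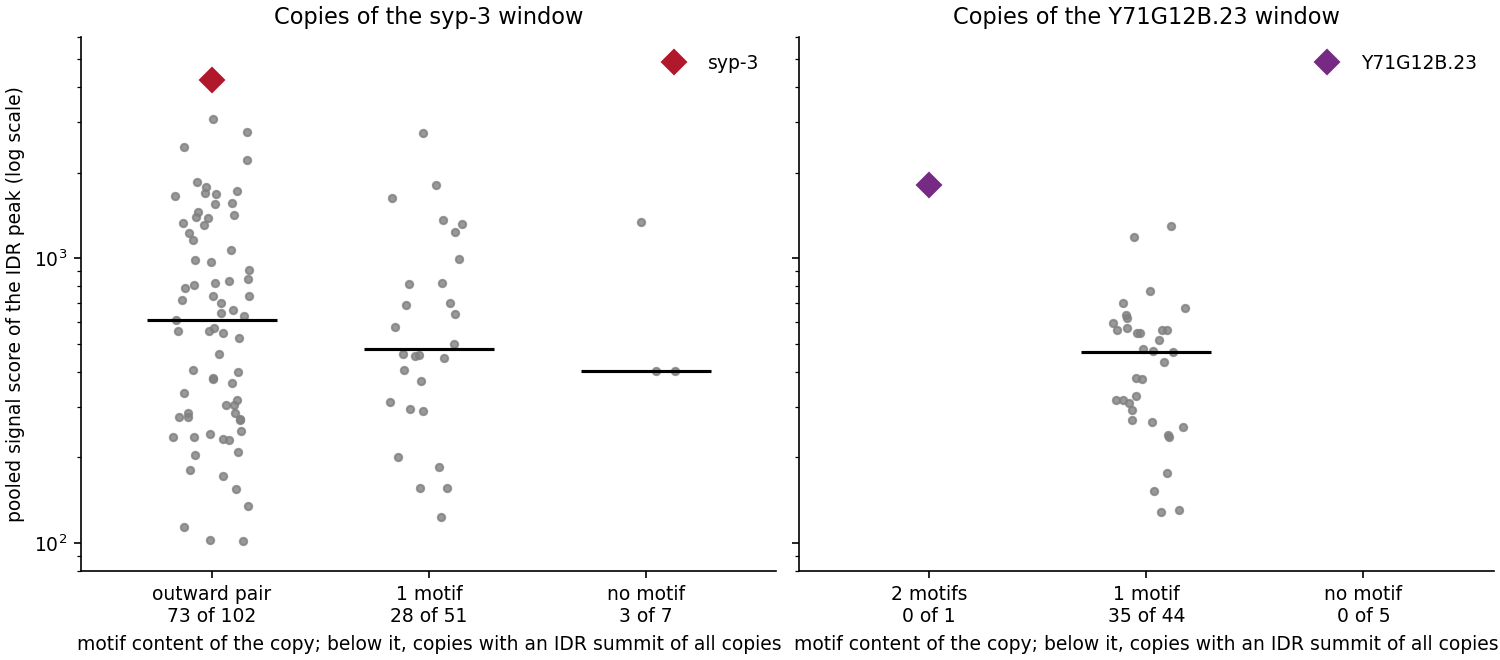
Pooled signal score (log scale) of the IDR peak on each copy of the syp-3 window (left) and of the Y71G12B.23 window (right), by the number and arrangement of TGTCGG motifs in the copy, with bars at medians and the gene's own copy as a diamond. Below each class stand the copies with an IDR summit out of all copies, and copies without one are not drawn. The diamonds, at 4214 and 1809, belong to genes chosen for high signal and lie above all drawn copies. The 5 copies of the Y71G12B.23 window with no motif had no IDR summit.

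Of the 4 motifs searched, TGTCGG was the only one found within 100 bp of these summits. TGTCGG was within 100 bp of the summit at 2 of the 5 genes, syp-3 and Y71G12B.23, against 9.78% of lone peaks, 23.3% of IDR peaks and 6.38% of other candidates, and it was not found at eelo-2, ntl-11 or tsr-2. CTGTTTCA, the core of the element upstream of piRNA genes, was within 100 bp at 0 of the 5 genes and at 1.01% of lone peaks. TATAAA was at 0 of the 5 and at 15.9% of lone peaks, and the consensus of the tRNA B box at 0 of the 5 and 0% of lone peaks. In promoters taken from 250 bases before to 50 bases after the 5′ end, TGTCGG was present at syp-3 and in 6.92% of all coding promoters, and TATAAA at Y71G12B.23 and tsr-2 and in 38% of all. All motifs were searched on both strands. TGTCGG shares no stretch of its own length with the other motifs, and a match or its absence is a description of these letters.

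Most other genes of the same pathways had no IDR summit within 300 bp, as held for most coding genes. Of 19 genes grouped here as synaptonemal complex and chromosome axis, syp-3 included by the rule, 6 (31.6%) had an IDR summit within 300 bp. Within 500 bp 6 had one, and 3 had one within 300 bp among the strongest 50% of IDR peaks. The 19 also include pch-2, cosa-1 and zhp-1 to zhp-4, none with an IDR summit within 300 bp. The shares of all coding genes were 6.36%, 8.73% and 3.28%. Without syp-3, 5 of 18 had an IDR summit within 300 bp. The highest was syp-4, another synaptonemal complex component, with a signal of 4502, rank 74 in the pooled list and ranks 71 and 77 in replicates 1 and 2. Its summit was 171 bp upstream of syp-4 but 37 bp from the snRNA gene H27M09.6, so it was not a lone peak, and it did not lie on a copy of the syp-3 element. The third, htp-1, an axis protein, had a signal of 251 and rank 1512, and its summit was closer to the 5′ end of ZK616.5. In replicate 2 no summit lay within 300 bp of htp-1. The remaining 3, htp-2, syp-6 and him-3, had ranks from 2816 to 4271, and syp-1, syp-2 and syp-5 had no IDR peak. The him-3 summit was 6 bp from the 5′ end of pgl-1 and 196 bp from that of him-3. The htp-2 summit was also 293 bp from the 5′ end of Y73B6BL.23, and the syp-6 summit 175 bp from that of mei-2. Of 8 genes of CCR4-NOT found in the annotation, ntl-11, included by the rule, alone had an IDR summit, so 0 of the 7 others did. Of 9 genes grouped here as ribosomal subunit maturation, of either subunit, tsr-2, included by the rule, and pro-1 had an IDR summit. That of pro-1 had a signal of 195 and rank 1984. Without tsr-2, 1 of 8 had an IDR summit. Of the 2 eelo genes, eelo-2, included by the rule, had an IDR summit and eelo-1 had no summit within 300 bp in any list.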

How the data were processed

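The authors deposited, per the labels, narrowPeak lists for 2 biological replicates of SNPC-4-GFP ChIP-seq, for the pooled replicates and for pooled peaks past the IDR threshold. The signal score and the −log10 q-value of each region are the authors' deposited values. The sources used here do not give the score's scale, the peak caller or the aligner. The deposited −log10 q-value was at its highest for all IDR peaks and was not used for ranking. A listing deposited with the samples names a control alignment, and the ce10 lists were not used here.

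Summits are region start plus deposited offset, counted from 1. Genes came from Ensembl release 115 and sequence from RefSeq, both of WBcel235 (ce11), and symbols are Ensembl's. A matching replicate region covers the pooled summit. Copies are BLAST 2.17.0 alignments (e-value up to 1e-05) of the 301 bases around a summit over at least 150 bases, overlapping alignments joined. Python 3.11.15, numpy 2.4.6, pandas 2.3.3 and matplotlib 3.10.9 were used, and the scripts were tested on simulated regions.

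The genes and lists were chosen with earlier results of these data known, so no test is given. Named were the 5 genes, lone coding genes among and up to 5 places after them, genes within 1000 bp of their summits, up to 3 peak genes of each list, and the genes nearest in rank. Others, including Y73F8A.27, 21ur-1133, CD4.8 pgl-1 and the other neighbours of named genes, were chosen after their values were seen.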

Additional observations from a re-analysis of the deposited data

How the results depend on the processing

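Of 74 alternative values, 60 stayed within 1.5 times the reported count and 14 did not. With windows of 150 bp in place of 300 bp, 2 of the 5 genes kept a peak (syp-3 and ntl-11). The last of the genes with a place then stood 3rd in the order of lone peaks. At 150 bp, 3 synaptonemal complex and axis genes, 1 ribosomal subunit maturation gene and 0 eelo genes had an IDR summit. With the strongest 50% of IDR peaks, 3 synaptonemal complex and axis genes did. Within 200 bp of the summit, TATAAA was found at 1 of the 5 genes, and within 500 bp 1 neighbouring gene remained of 3. Copies of the syp-3 window numbered 86 over 290 aligned bases. Copies of the Y71G12B.23 window numbered 167 over 100 bases, 7 over 200 and 0 over 290, and those of the ntl-11 window 0 over 200 and 0 over 290. The fewer aligned bases were asked for, the more copies were counted, by construction.

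Leaving out 1 replicate placed the last of the 5 genes 10th, against 9th, and left 4 synaptonemal complex and axis genes in either case. It gave 105 and 114 copies of the syp-3 window with a peak, and 34 and 37 of the Y71G12B.23 window. With a gap of 1000 bp to small RNA genes, eelo-2 was no longer lone. With RefSeq 5′ ends, chosen as an alternative after seeing the data like the copy lengths and the rule on overlap, syp-3 left the window and 4 genes remained. Ranking by −log10 p was not run, because the deposited column holds a placeholder. No paired analysis was possible because no result comes from a test. Depth is unknown, so the lists cannot show whether genes without a peak lacked binding.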
